A study of Mus musculus with 64 samples.

Results

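Early restoration of Foxp3 in active cells was followed in 8 of the 64 bulk RNA-seq libraries of the study, chosen by their titles as the active cells of the reversible Foxp3 allele at days 3 and 7 after 4-hydroxytamoxifen (4-OHT). Of these, 4 libraries were plusFoxp3 and 4 were minusFoxp3, with 2 of each arm at each day. The study asked how fast Foxp3, once switched on, installs the transcriptome of regulatory T (Treg) cells. All mice carried Foxp3-LSL, an allele in which a loxP-flanked Thy1.1 reporter and a stop cassette keep Foxp3 off. The plusFoxp3 mice also carried CD4-CreERT2, a recombinase driven from the Cd4 locus that removes the cassette once 4-OHT activates it, so that a GFP-tagged Foxp3 is made. The minusFoxp3 mice were CD4-WT littermates given the same 4-OHT. Both arms were heterozygous females, in which cells using the other X chromosome form normal Treg cells, and their age was not used here. Cells came from pooled spleen and lymph nodes and were sorted as CD62L lo CD44 hi, the active gate, with GFP+ Thy1.1- cells for plusFoxp3 and GFP- Thy1.1+ cells for minusFoxp3. In the plusFoxp3 arm the sort thus kept cells that had recombined the allele, while minusFoxp3 cells still carried the cassette. Untreated active cells of both genotypes (day 0), resting CD62L hi CD44 lo cells at days 3 and 7, active cells at days 14 and 28 and 2 libraries of untreated active Treg cells of the genotype Foxp3GFP (GFP Treg cells) served as comparisons.

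Foxp3 is the forkhead transcription factor that defines Treg cells, which restrain immune responses through surface receptors, uptake of IL-2 and inhibitory cytokines. Cells that transcribe the locus without functional protein, called Treg wannabe cells, keep part of the Treg phenotype and can make effector cytokines that Treg cells normally do not. Genes that differ soon after the protein appears include those Foxp3 may act on directly, although a difference in mRNA does not tell direct from indirect control.

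The 8 libraries held 42746339 to 57419138 counted read pairs. Log2 CPM (read pairs of a gene scaled to a common library total) correlated at 0.973 to 0.993 between them, across genes, which are not independent replicates. On the first principal component, 35.9% of the variance, the minusFoxp3 libraries were spread the most, with the largest value in day 7 replicate 1. The paper describes the 2 libraries of a group as independent biological replicates. The labels do not tie them to separate animals, and p-values measure the spread between these samples. The 13 T cell lineage markers summed to 11693 to 14366 CPM in minusFoxp3 and 11206 to 12421 CPM in plusFoxp3 libraries, which fits the labeled cell type. Markers of other cells were low but unequal. The 15 myeloid and dendritic cell markers summed to 48.7, 12.4, 15.9 and 153 CPM in the minusFoxp3 libraries and to 7.12 to 31.7 CPM in plusFoxp3 libraries. Of the 12 CD8 T, NK and gamma delta T cell markers, 9 were found by symbol and 6 passed the count filter. The 9 summed to at most 40.7 CPM, in D7 minusFoxp3 replicate 2. The symbols Tcrg-C1, Tcrg-C2 and Tcrg-C4 had no match, so the gamma chain constant genes of the list were not in the sum. Erythroid and platelet markers, of which 8 of 10 passed, summed to 2.63 to 37.8 CPM, highest in D3 plusFoxp3 replicate 2. None of the members of these last lists that were found by symbol and tested was called, and Ncr1, Klra8 and Ppbp were below the filter. Trgc2, a gamma chain constant gene that may be the listed Tcrg-C2 under another symbol, was called lower in plusFoxp3 in the joint comparison of days 3 and 7. That call was kept in 2 of the 8 fits that left out a library.

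As the check of the labels, Foxp3 itself (GRCm39 chromosome X, 7439883 to 7461484) comes first. It stood at 63.4 and 56.6 CPM in the minusFoxp3 libraries at day 3 and 62.7 and 46.7 CPM at day 7, against 426 and 550 CPM in plusFoxp3 at day 3 and 582 and 538 CPM at day 7. The 2 arms did not overlap, and the mean was 9.14-fold higher in plusFoxp3. Untreated cells of both genotypes lay between 46.2 and 65.3 CPM, with overlapping genotypes, and GFP Treg cells held 734 and 817 CPM. Thy1, whose reads include any from the Thy1.1 reporter, was at 430 to 585 CPM in minusFoxp3 and 79.2 to 103 CPM in plusFoxp3. Because GFP and Thy1.1 set the sort gates, both genes describe the sort and are no findings.

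Esr1 and Cd4 are given as checks on the genotype. CreERT2 contains a mutated ligand-binding domain of the estrogen receptor, the protein that Esr1 encodes. Esr1 was at 1.80 to 3.41 CPM in minusFoxp3 and 17.6 to 20.7 CPM in plusFoxp3 libraries at days 3 and 7, and it was as high before treatment, with 22.6 and 17.0 CPM in untreated CreERT2 carriers against 1.96 and 3.00 CPM in CD4-WT cells. Whether transgene reads were counted at Esr1 was not tested. Cd4, the locus that holds CreERT2, was at 628 to 932 CPM in minusFoxp3 and 459 to 538 CPM in plusFoxp3 libraries, a log2 difference of -0.66 (SE 0.15, edgeR adjusted p = 0.119), and at day 0 the log2 difference was already -0.69. Neither day 0 difference was called.

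Of 20808 genes whose mean reached 10 counts, 101 (0.485%) were called in plusFoxp3 minus minusFoxp3 with day as a block, at an edgeR adjusted p under 0.05. Higher in plusFoxp3 were 42 genes (0.202%), with a median log2 fold change of 1.50, and lower were 59 (0.284%), with a median of -1.66. With all 22 active libraries in the fit the balance turned, to 163 higher and 108 lower. Over all genes tested the median was -0.04. The change exceeded 2-fold in 31 of the higher and 51 of the lower genes. All 101 had non-overlapping arms in CPM, as did 7.02% of all genes tested, and a call with this few libraries favors such genes. The lower genes included the cytokine genes Il17f, Il17a, Il21 and Il4, and the higher ones Lrrc32, Itgae and Il2ra of the Treg signature list. In bulk libraries, fewer cells expressing a gene and less of its RNA per cell cannot be told apart.

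**Figure D1:**
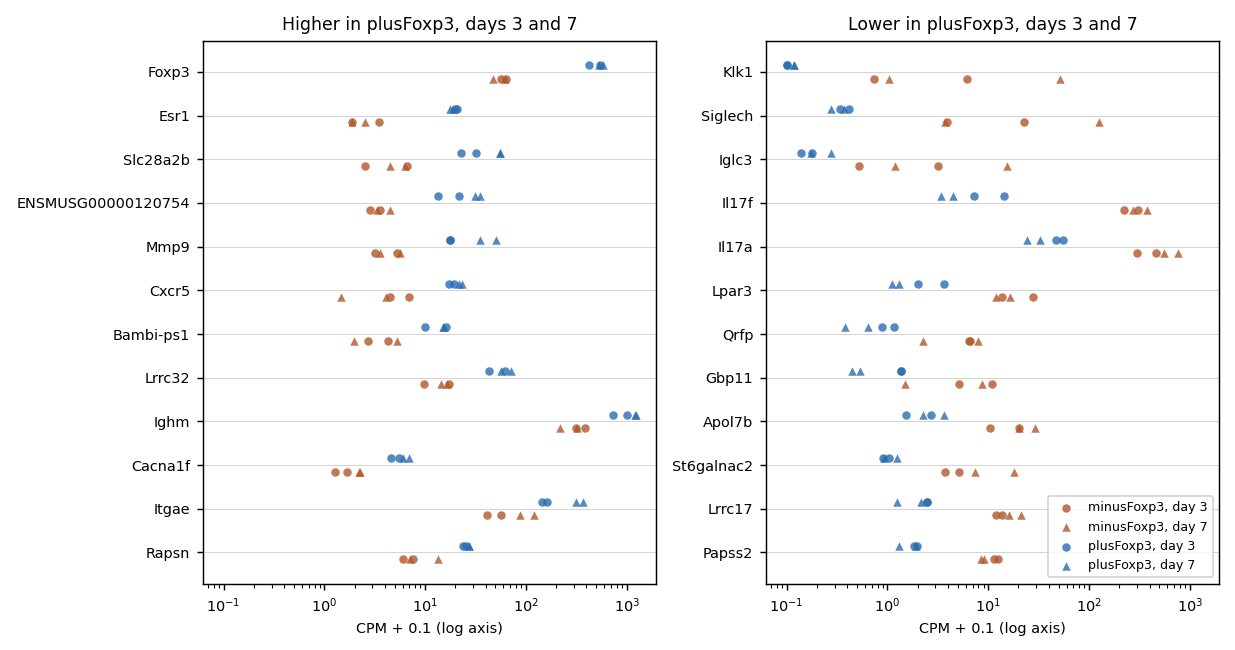
Level of the 12 highest-ranked genes per direction in each of the 8 libraries, as CPM plus 0.1 on a log axis (brown, minusFoxp3; blue, plusFoxp3; circles, day 3; triangles, day 7). Arms do not overlap for any gene shown, which was a condition for being shown; Klk1, Siglech and Iglc3 spread widely among the minusFoxp3 libraries, while Il17f and Il17a do not.

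The promoters of the cytokine genes Il17a and Il17f are shown because these neighbors on chromosome 1 moved together, and that of Qrfp because, of the 9 leading lower genes with a window, it alone held a forkhead core. Each is the 250 bases before the RefSeq start, on the strand of the gene, from a RefSeq table of build GRCm38.p6 and located in GRCm39 by exact match. The Il17f window lies inside the span of the longer gene model used for counting. Capitals mark TGTTTGC. The Il17a window is chr1:20800879-20801128 (+), that of Il17f is chr1:20854495-20854744 (-) and that of Qrfp is chr2:31700593-31700842 (-).
Il17a: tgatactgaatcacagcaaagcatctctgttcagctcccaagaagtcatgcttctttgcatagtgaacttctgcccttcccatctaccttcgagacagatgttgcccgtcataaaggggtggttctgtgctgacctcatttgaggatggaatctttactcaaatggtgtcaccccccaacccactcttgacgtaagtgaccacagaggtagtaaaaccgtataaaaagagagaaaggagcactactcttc
Il17f: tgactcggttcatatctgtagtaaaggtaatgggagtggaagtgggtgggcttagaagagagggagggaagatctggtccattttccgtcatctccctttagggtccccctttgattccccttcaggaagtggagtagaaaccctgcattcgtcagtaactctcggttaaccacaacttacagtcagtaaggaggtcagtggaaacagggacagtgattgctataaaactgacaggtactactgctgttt
Qrfp: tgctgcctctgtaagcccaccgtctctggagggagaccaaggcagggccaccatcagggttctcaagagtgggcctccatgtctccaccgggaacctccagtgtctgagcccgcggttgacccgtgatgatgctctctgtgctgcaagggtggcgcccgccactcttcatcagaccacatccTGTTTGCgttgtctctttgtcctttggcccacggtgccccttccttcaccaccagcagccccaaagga
The forkhead cores TGTTTAC and TGTTTGC differ only in the A or G before the last C. Both were searched on both strands from 250 bases before to 50 after the start. TGTTTAC occurred in 3.55% and TGTTTGC in 5.04% of 27025 RefSeq promoters, 1 window per symbol, and 8.34% held at least 1 of them. Of the 12 leading higher genes, 4 had a window and 1 of these, Esr1, held a core. Of the 12 leading lower genes, 9 had a window and 1, Qrfp, held a core, 68 bases before the start. No match in Il17a or Il17f says only that these letters are not in the windows.

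Cytokine genes were among those that fell. Il17f (chromosome 1, 20847370 to 20860841), which encodes a neutrophil-recruiting cytokine of Th17 cells, was at 305 and 222 CPM in minusFoxp3 at day 3 and 375 and 275 CPM at day 7. In plusFoxp3 it was at 7.16 and 14.2 CPM at day 3 and 3.27 and 4.39 CPM at day 7. Every plusFoxp3 library was far below every minusFoxp3 library, with a mean 40.6-fold lower and a log2 fold change that came to -5.48 (SE 0.43, edgeR adjusted p = 0.000697). Il17a (chromosome 1, 20801129 to 20804720), the defining Th17 cytokine, was at 301 and 459 CPM in minusFoxp3 at day 3 and 763 and 551 CPM at day 7, against 55.7 and 46.5 CPM and 24.1 and 33.0 CPM in plusFoxp3. Its log2 fold change was -3.69 (SE 0.36, edgeR adjusted p = 0.00216). Untreated CreERT2 carriers already held less Il17a, at 203 and 273 CPM against 553 and 508 CPM in CD4-WT cells. That day 0 difference was not called, and the difference from day 0 is tested below.

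Il21, which encodes a cytokine that helps B cells and Th17 cells, was at 85.5, 86.6, 97.8 and 98.5 CPM in minusFoxp3 and at 30.6, 32.9, 20.4 and 20.9 CPM in plusFoxp3. The replicates of each group lay close together, and the log2 fold change was -1.82 (SE 0.18, edgeR adjusted p = 0.00236). Il4, the signature Th2 cytokine, was at 31.2 and 22.3 CPM at day 3 and 73.0 and 28.2 CPM at day 7 in minusFoxp3, against 8.47 and 8.15 CPM and 6.46 and 5.43 CPM in plusFoxp3. It fell by 2.36 on the log2 scale (SE 0.37, edgeR adjusted p = 0.0305). That call for Il4 was lost without any 1 of 5 libraries (D3 minusFoxp3 replicate 1 and each of the plusFoxp3 libraries), with edgeR adjusted p-values of 0.0667 to 0.168. Ifng was at 10.3 to 72.6 CPM in minusFoxp3 and 5.53 to 10.9 CPM in plusFoxp3, arms that overlapped (log2 difference -1.86, SE 0.47, edgeR adjusted p = 0.162). Il2 and Il10 overlapped too, with log2 differences of -0.58 and 0.58 and edgeR adjusted p-values of 0.443 and 0.321.

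Among other genes that fell, several encode receptors or enzymes. Lpar3, a receptor for lysophosphatidic acid, was at 27.7, 13.6, 11.9 and 16.2 CPM in minusFoxp3 and 3.58, 1.90, 1.01 and 1.21 CPM in plusFoxp3. Papss2, an enzyme that makes the sulfate donor PAPS, was at 8.43 to 12.5 CPM against 1.20 to 1.88 CPM. Klrk1, the activating receptor NKG2D, was at 12.1, 37.5, 18.7 and 20.7 CPM against 4.36, 4.76, 3.31 and 3.07 CPM. The log2 fold changes of Lpar3, Papss2 and Klrk1 were -3.26, -2.60 and -2.52, with edgeR adjusted p-values of 0.00272, 0.000918 and 0.00891. Lrrc17 and the apolipoprotein L family gene Apol7b fell by 2.97 and 2.99 on the log2 scale, both with edgeR adjusted p under 0.05. Smaller in level, the neuropeptide gene Qrfp was at 2.15 to 7.81 CPM in minusFoxp3 and 0.279 to 1.05 CPM in plusFoxp3, and the sialyltransferase gene St6galnac2 at 3.66 to 18.0 CPM against 0.807 to 1.15 CPM. Gbp11, a guanylate-binding protein gene, was at 1.41 to 10.9 CPM in minusFoxp3 and 0.347 to 1.27 CPM in plusFoxp3, so its arms nearly met.

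Vdr, Nfkb1 and Aqp3 also fell, and were chosen for mention after their values were seen. Vdr, the vitamin D receptor, was at 128, 91.0, 94.7 and 118 CPM in minusFoxp3 and 20.6, 37.0, 20.2 and 18.3 CPM in plusFoxp3 (log2 fold change -2.17, SE 0.23, edgeR adjusted p = 0.00272). Nfkb1, which encodes the NF-kappaB subunit p50 and its precursor, was at 375 to 522 CPM against 150 to 227 CPM, a log2 fold change of -1.26 (edgeR adjusted p = 0.00969). Aqp3, a channel for water and glycerol, was at 570 to 877 CPM against 237 to 332 CPM, a log2 fold change of -1.38 (edgeR adjusted p = 0.00854). At day 0 their log2 differences were -0.21, -0.30 and -0.31.

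Levels of 3 lower genes differed widely among the minusFoxp3 libraries. Siglech, a surface lectin of plasmacytoid dendritic cells, was at 22.8 and 3.79 CPM in minusFoxp3 at day 3 and 3.67 and 125 CPM at day 7, and at 0.174 to 0.318 CPM in plusFoxp3. Klk1, a kallikrein protease gene, was at 6.13, 0.632, 0.934 and 51.2 CPM in the same order, with 0, 0, 1 and 1 read pairs counted in the plusFoxp3 libraries. Iglc3, an immunoglobulin lambda constant gene, was at 3.08, 0.421, 1.09 and 15.4 CPM against 0.0404 to 0.174 CPM. All 3 were highest in D7 minusFoxp3 replicate 2 and next in D3 minusFoxp3 replicate 1, the pair of libraries with the highest myeloid and dendritic marker sums. Siglech is itself in that marker list. It gave 125 of the 153 CPM and 22.8 of the 48.7 CPM of those sums, so the match is partly built in. Flt3, a dendritic cell growth factor receptor of the same list, was chosen for mention after its values were seen. It followed the same libraries at 1.66, 0.281, 0.273 and 8.75 CPM (log2 difference -4.09, edgeR adjusted p = 0.149). Of the 14 list members tested, 9 had a negative and 5 a positive difference, with a median of -0.43 on the log2 scale. Siglech alone was called. Before 4-OHT, Siglech was at 2.37 and 78.5 CPM in untreated CD4-WT and 0.671 and 0.275 CPM in untreated CreERT2 cells, a difference that was not called. Without both of those early libraries Siglech and Klk1 were still called, with edgeR adjusted p-values of 0.0117 and 0.0302 and a log2 difference of -3.85 for Siglech, while Iglc3 was not (log2 difference -2.92, edgeR adjusted p = 0.148). The Siglech call was lost without D3 minusFoxp3 replicate 1 or any 1 of the plusFoxp3 libraries, with edgeR adjusted p-values of 0.115 to 0.253. The part of other cells in these differences was not tested.

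Among the higher genes, several encode surface or secreted molecules linked to Treg cells. Lrrc32 (chromosome 7, 98138490 to 98151388) encodes GARP, which holds latent TGF-beta on the Treg surface. It was at 17.1, 9.69, 14.2 and 16.6 CPM in minusFoxp3 and 61.9, 43.4, 71.5 and 56.7 CPM in plusFoxp3, 4.06-fold higher on average (log2 fold change 2.04, SE 0.21, edgeR adjusted p = 0.00272). Itgae (chromosome 11, 72981409 to 73038272) encodes CD103, the integrin chain that binds E-cadherin. It was at 40.6 and 56.3 CPM in minusFoxp3 at day 3 and 87.0 and 120 CPM at day 7, against 162 and 144 CPM and 372 and 315 CPM in plusFoxp3. Both arms were higher at day 7, and the log2 fold change was 1.72 (SE 0.16, edgeR adjusted p = 0.00198).

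Il2ra, the alpha chain of the IL-2 receptor that Treg cells express at high level, was at 262, 248, 229 and 288 CPM in minusFoxp3 and 406, 375, 457 and 455 CPM in plusFoxp3. The increase was 1.65-fold (log2 fold change 0.74, SE 0.12, edgeR adjusted p = 0.0311). Il2ra kept its call only without D7 minusFoxp3 replicate 1 or 2, and leaving out any other library gave edgeR adjusted p-values of 0.0762 to 0.167. Other hallmark Treg genes did not pass. Ctla4, a coinhibitory receptor, was at 727 to 934 CPM against 1013 to 1138 CPM (log2 difference 0.36, SE 0.12, edgeR adjusted p = 0.301). Ikzf2, which encodes Helios, was at 37.2 to 48.2 CPM in minusFoxp3 and 52.2 to 95.7 CPM in plusFoxp3 (log2 difference 0.84, SE 0.18, edgeR adjusted p = 0.101), and 653 and 608 CPM in GFP Treg cells. Tnfrsf18, which encodes GITR, overlapped between the arms, with a log2 difference of 0.23 and an edgeR adjusted p of 0.674. The naive and memory genes Il7r and Tcf7 also overlapped, with log2 differences of -0.37 and -0.67 and edgeR adjusted p-values of 0.535 and 0.162.

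Cxcr5, Cxcr3 and Mmp9 were higher in plusFoxp3. Cxcr5, the receptor for the follicular chemokine CXCL13, was at 6.80, 4.37, 1.37 and 4.01 CPM in minusFoxp3 and 19.4, 17.2, 23.0 and 21.5 CPM in plusFoxp3 (log2 fold change 2.39, SE 0.38, edgeR adjusted p = 0.0311). Cxcr3, a receptor for interferon-induced chemokines, was at 16.4 to 29.6 CPM against 43.1 to 81.4 CPM, with a log2 fold change of 1.48 and the same adjusted p of 0.0311. Mmp9, a gelatinase, was at 5.20, 3.11, 3.48 and 5.48 CPM in minusFoxp3, at 17.5 CPM in both plusFoxp3 libraries of day 3 and at 50.8 and 35.3 CPM at day 7 (log2 fold change 2.70, SE 0.31, edgeR adjusted p = 0.00567). Slc28a2b, a nucleoside transporter gene, had the largest log2 fold change after Foxp3 and Esr1 among the leading higher genes, 3.03 (SE 0.33, edgeR adjusted p = 0.00357), at 2.43 to 6.46 CPM against 22.5 to 55.8 CPM. Next to it on chromosome 2 the pseudogene Bambi-ps1 rose by 2.04. Rapsn, which clusters acetylcholine receptors at the muscle synapse, was at 5.97 to 13.3 CPM against 23.4 to 27.3 CPM.

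Ighm, the immunoglobulin mu heavy chain gene (chromosome 12, 113382178 to 113386350), rose. It was at 387, 316, 219 and 322 CPM in minusFoxp3 and 1014, 736, 1223 and 1232 CPM in plusFoxp3, 3.38-fold higher (log2 fold change 1.77, SE 0.21, edgeR adjusted p = 0.00665), and at 3754 and 3902 CPM in GFP Treg cells. The unnamed gene ENSMUSG00000120754 (chromosome 12, 113389913 to 113390546) lies upstream of Ighm on the same strand and rose by 2.82 on the log2 scale (SE 0.24, edgeR adjusted p = 0.000918). Of the 12 B cell markers, Ighm was the only one called, 8 had a positive difference and the median was 0.51 on the log2 scale. The list summed to 233 to 418 CPM in minusFoxp3 and 760 to 1267 CPM in plusFoxp3 libraries, most of it from Ighm. Log2 differences of the 12 ranged from -1.56 to 1.93, the highest in a member that was not called. The arms of 3 of them, Ighm included, did not overlap in CPM, as in 7.02% of all genes tested. Cd79a, a chain of the B cell receptor complex, was at 1.65 to 3.36 CPM over the 8 libraries, with a log2 difference of 0.26 and an edgeR adjusted p of 0.767.

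Called neighbors of Foxp3 on chromosome X were Ppp1r3f, which needs a caveat on counting, and Cacna1f. Ppp1r3f (7423535 to 7440522, opposite strand) overlaps the start of Foxp3 and was at 9.65 to 14.5 CPM in minusFoxp3 and 25.1 to 34.2 CPM in plusFoxp3 libraries (log2 fold change 1.40, edgeR adjusted p = 0.0118). Counting did not use strand, so reads of the overlap cannot be told apart. Cacna1f (7473322 to 7501435), a calcium channel gene downstream of Foxp3 that does not overlap it, was at 1.16 to 2.16 CPM against 4.48 to 6.80 CPM (log2 fold change 1.72, edgeR adjusted p = 0.0134). Ppp1r3f was chosen for mention after its values were seen.

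Gene lists are given as counts, without a set test, beside the 0.202% of all genes tested that were called higher and the 0.284% called lower. Of 26 Treg signature genes, 3 rose (Lrrc32, Itgae and Il2ra), none fell and 22 had a positive difference, with a median of 0.34 on the log2 scale against -0.04 for all genes tested. Of 14 suppressive mediators tested, Lrrc32 alone rose and the median was 0.37. Of 16 Th17 genes, 3 fell (Il17f, Il17a and Il21) and 13 had a negative difference, with a median of -0.46. The genes of the Th17 list that fell all encode cytokines, and Rora, a transcription factor of the list, was not called (edgeR adjusted p = 0.808).

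Other lists held few calls. Among 15 Th1 genes Cxcr3 rose and none fell, and among 11 Th2 and tissue repair genes tested Il4 fell and none rose. The 14 follicular helper genes divided, with Cxcr5 higher and Il4 and Il21 lower. Of 31 homing receptors and chemokines, Cxcr5, Itgae and Cxcr3 rose. Of 23 TNF family genes, Fas, the death receptor, rose (log2 fold change 0.87, edgeR adjusted p = 0.0406) and Cd40lg, the helper ligand for CD40, fell (log2 fold change -0.87, edgeR adjusted p = 0.0389). Of 20 effector Treg transcription factors, Id2, an inhibitor of E proteins, fell from 778 to 1446 CPM in minusFoxp3 to 405 to 527 CPM in plusFoxp3 (log2 fold change -1.16, edgeR adjusted p = 0.0453). Klrk1 was the only 1 of 14 cytotoxic and killer lectin genes called. Il2ra was the only 1 of 16 genes of the IL-2, IL-7 and STAT5 axis. Of the 8 fits that left out a library, Cxcr5 and Fas kept their call in 1 each, without D7 minusFoxp3 replicate 1. Id2 and Cd40lg kept theirs in 2 each, Cxcr3 in 4 and Klrk1 in 6.

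**Figure D2:**
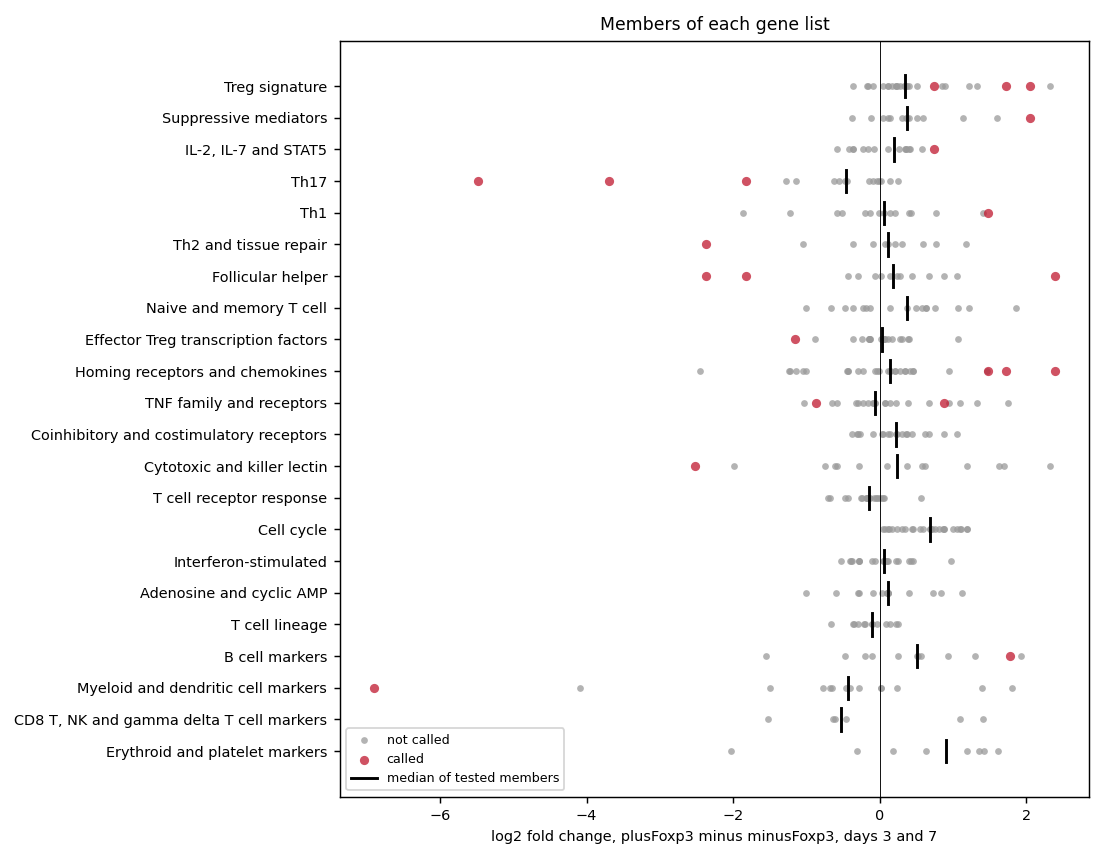
Log2 fold change of plusFoxp3 minus minusFoxp3 at days 3 and 7 for each tested member of 22 gene lists (gray, not called; red, called; bar, median of the list). Il17f, Il17a and Siglech lie far to the left of their lists, and all 27 cell cycle genes lie right of 0 with none called.

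No gene was called by edgeR in the lists of coinhibitory and costimulatory receptors (19 tested), naive and memory T cells (17), T cell receptor response (20), interferon-stimulated genes (21), adenosine and cyclic AMP (16) or cell cycle (27), with 7, 10, 2, 1, 4 and 11 members at an unadjusted p under 0.05. DESeq2 called 3, 2, 0, 0, 2 and 1 of them in that order, all higher. None of the cell cycle genes was called in the test of the difference between days. Their median log2 difference was 1.50 at day 3 and -0.03 at day 7, and 0.69 over both days. Summed, they reached 1298 and 1215 CPM in minusFoxp3 and 1998 and 2861 CPM in plusFoxp3 at day 3, but 1894 and 2214 CPM against 1836 and 1867 CPM at day 7. At day 0 their median was -0.84. Mki67, the proliferation marker, was at 28.1 and 45.2 CPM against 81.7 and 121 CPM at day 3 and at 63.7 and 78.8 CPM against 69.3 and 72.4 CPM at day 7, with an edgeR adjusted p of 0.422 over both days. The immediate early genes of the T cell receptor response list summed to 7609 to 18707 CPM in minusFoxp3 and 9206 to 13762 CPM in plusFoxp3, varying more within arms than between them.

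Each day alone gave fewer calls. At day 3, 25 genes (0.12%) were called, 17 higher and 8 lower, and at day 7, 38 genes (0.183%), 13 higher and 25 lower. All 101 genes of the joint comparison had the same direction at both days, which the joint call favors. Their median log2 fold change was 1.32 at day 3 and 1.71 at day 7 for the higher genes and -1.44 and -1.84 for the lower ones. Il17f had log2 fold changes of -4.59 at day 3 and -6.40 at day 7, Il17a of -2.87 and -4.52, and Il21 of -1.41 and -2.23, each called at both days. These counts hung on single libraries. Without D3 minusFoxp3 replicate 1 or 2, edgeR called 0 genes at day 3 (955 and 1290 at an unadjusted p under 0.05), and without D3 plusFoxp3 replicate 1 or 2 it called 3 and 2. Without D7 plusFoxp3 replicate 1 or 2 it called 5 and 4 genes at day 3 and 3 and 4 at day 7, whereas without D7 minusFoxp3 replicate 2 it called 82 at day 3 and 1007 at day 7, 544 higher and 463 lower. Without D7 minusFoxp3 replicate 1 there were 81 and 79. Tested as an interaction, the effect differed between the days for 0 genes (0%) by edgeR, with 729 at an unadjusted p under 0.05 and 64 called by DESeq2. Larger values at day 7 are therefore not shown to be a further change.

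The calls depended on single libraries more than their directions did. Leaving out D7 plusFoxp3 replicate 1 or 2 left 21 and 23 calls, and leaving out D3 plusFoxp3 replicate 1 or 2 left 44 and 57. Without D3 minusFoxp3 replicate 1 or 2 there were 51 and 65, and without D7 minusFoxp3 replicate 1 there were 176. Without D7 minusFoxp3 replicate 2 there were 71. Without both libraries that held the most Siglech, 42 genes were called, of which 33 were among the 101. Apart from genes the rule names, those listed next were chosen after their values were seen. In all 8 fits that left out a library, 21 of the 101 genes were called: Foxp3, Esr1, Slc28a2b, ENSMUSG00000120754, Mmp9, Lrrc32, Ighm, Itgae, Lgmn and Arl5c were higher, and Il17f, Il17a, Il21, Lpar3, Apol7b, Apol7e, Lrrc17, Papss2, Vdr, Gm39323 and Thy1 were lower.

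Untreated cells gave the genotype difference before Foxp3 was restored. No gene (0%) of 20704 was called at day 0 by edgeR, with 832 at an unadjusted p under 0.05 and 28 called by DESeq2. Of the early calls that could be tested there, 16 of 42 higher genes had a positive and 37 of 58 lower genes a negative difference, with medians of -0.09 and -0.12. The early effect minus the day 0 effect was called for 28 genes (0.135%), 14 higher and 14 lower. Among them, besides Foxp3 and Thy1, were Itgae, Mmp9, Ighm, ENSMUSG00000120754, Slc28a2b and Arl5c on the higher side and Il17f, Il17a, Lpar3, Papss2, Klrk1, Lmo4 and Apol7e on the lower side. The difference from day 0 was -4.55 for Il17f (SE 0.43, edgeR adjusted p = 0.00332) and -2.53 for Il17a (SE 0.32, edgeR adjusted p = 0.0153) on the log2 scale, so the Il17a gap had widened beyond that of the untreated cells. For Klrk1 the day 0 difference had the opposite sign but was not itself called. Untreated CreERT2 carriers held 32.0 and 59.5 CPM and CD4-WT cells 18.8 and 9.76 CPM.

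**Figure D3:**
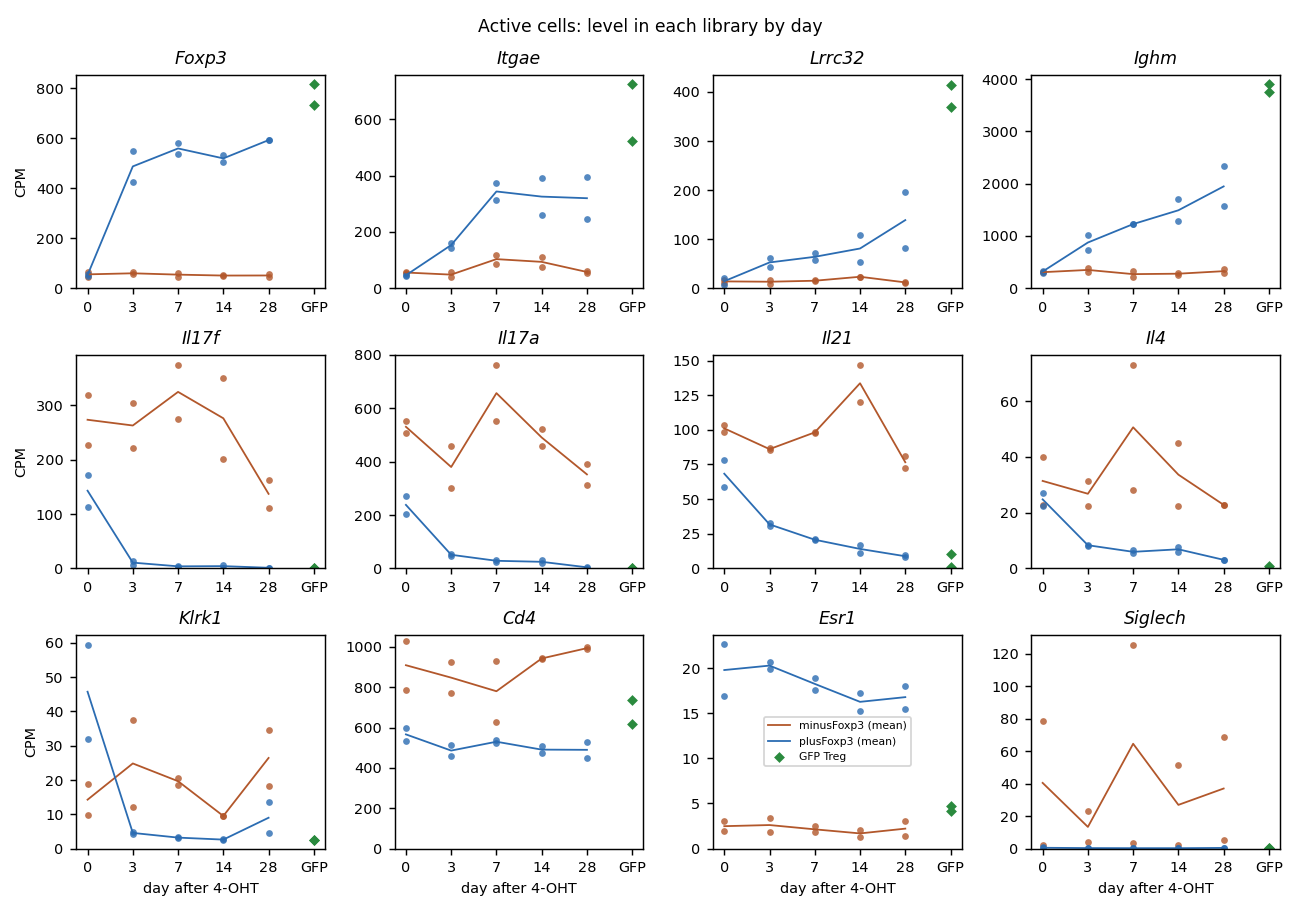
CPM of 12 genes in each active library by day after 4-OHT (brown, minusFoxp3; blue, plusFoxp3; points, libraries; lines, means of 2 libraries; green diamonds, GFP Treg cells). Foxp3, Itgae, Lrrc32 and Ighm leave the minusFoxp3 level by day 3 and Il17f and Il17a fall to near 0, while the arms lie apart from day 0 on for Cd4 and Esr1 and Siglech is high in single minusFoxp3 libraries.

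The early calls were then followed into contrasts between other libraries. The fits for late and resting cells still held the early active libraries, which entered the filter and the estimate of spread. The GFP Treg fit held none of them. When GFP Treg cells were compared with untreated minusFoxp3 cells, 828 genes (3.98%) were higher and 691 (3.32%) lower. Of the 42 early higher genes, 27 were called higher and none lower there, and of 58 early lower genes tested, 48 were called lower and none higher. The medians of the early sets in that comparison were 2.12 and -3.89 on the log2 scale, against 1.50 and -1.66 in the early one. At days 14 and 28 of the same cells, where 392 genes (1.89%) were higher and 449 (2.16%) lower, 38 of 42 and 51 of 58 were called in the same direction, with medians of 1.64 and -2.15. The libraries contrasted are separate, but their spread was estimated together with the early ones, so these calls are not independent of the early calls. The genotypes and gates are also the same, so differences of genotype such as Esr1 recur. In resting cells at days 3 and 7, with 195 genes (0.936%) higher and 89 (0.427%) lower, 17 of 42 and 25 of 58 were called in the same direction and none in the opposite one.

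**Figure D4:**
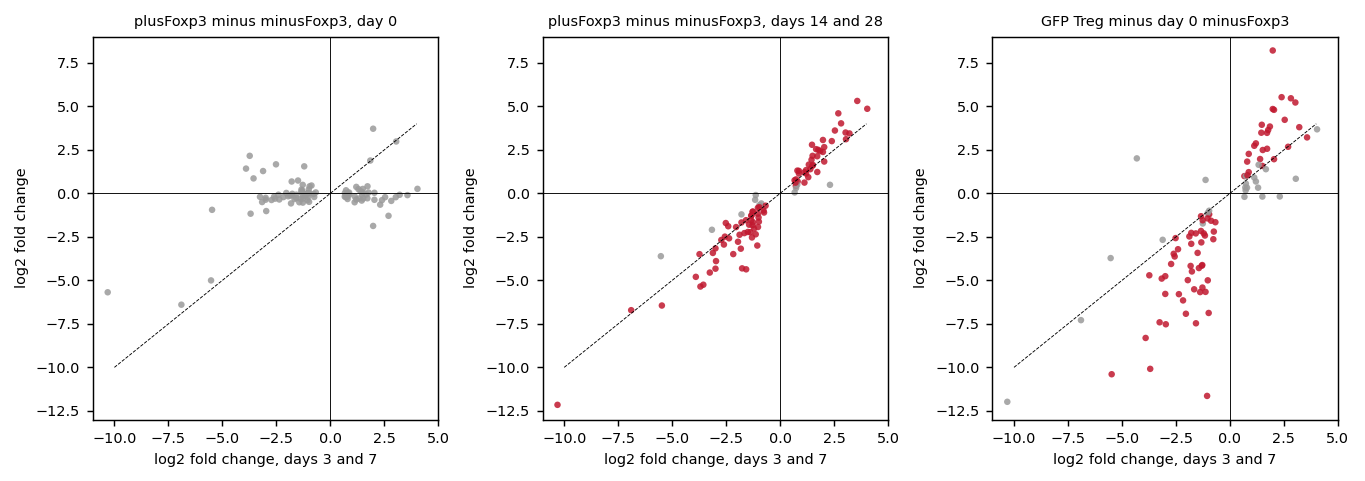
Log2 fold change of the genes called at days 3 and 7 (horizontal axis) against their log2 fold change at day 0, at days 14 and 28 and between GFP Treg and untreated minusFoxp3 cells (vertical axes; red, called in that comparison; dashed, equality). No point is called at day 0, where Klk1, Siglech, Iglc3 and Esr1 lie far from 0, while nearly all points keep their direction in the other panels.

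The distance left to GFP Treg cells varied by gene. For Il17f the early plusFoxp3 level of 3.27 to 14.2 CPM compared with 0.0949 and 0.312 CPM in GFP Treg cells, and for Il17a 24.1 to 55.7 CPM with 0.645 and 0.312 CPM. Lrrc32 was at 43.4 to 71.5 CPM against 369 and 415 CPM, and Cxcr5 at 17.2 to 23.0 CPM against 228 and 146 CPM. Il2ra came closer, at 375 to 457 CPM against 485 and 639 CPM. Early plusFoxp3 cells also held 237 to 332 CPM of Aqp3 where GFP Treg cells held 8.56 and 19.7 CPM. These values are given side by side without a test, since GFP Treg cells were not given 4-OHT at a matched day.

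By state, the early effect differed between active and resting cells for 2 of 20843 genes (0.0096%), tested as an interaction. Neither gene was called with a replicate block (edgeR adjusted p = 0.0558 for both) or without D3 minusFoxp3 replicate 1, D7 plusFoxp3 replicate 1 or D7 plusFoxp3 replicate 2, where 0 genes were called, with 980 to 1047 at an unadjusted p under 0.05. Il2rb also lost its call without either D3 plusFoxp3 library. Il17f had a log2 difference between states of -3.89 (SE 0.47, edgeR adjusted p = 0.0158), and was at only 0.763 to 3.37 CPM in resting minusFoxp3 cells. Il2rb, the beta chain of the IL-2 and IL-15 receptors, was at 645 to 748 CPM in active minusFoxp3 and 607 to 665 CPM in active plusFoxp3 cells, but at 495 to 572 CPM against 1000 to 1170 CPM in resting cells (difference -1.15, SE 0.14, edgeR adjusted p = 0.0158). Over time, the effect at days 14 and 28 minus that at days 3 and 7 was called for 28 of 20742 genes (0.135%), 26 of them lower (0.125%). The cell cycle list gave 5 of these lower genes (Aurka, Rrm2, Bub1, Top2a and Ccnb1) of 27 tested, with a list median of -1.10 against 0.08 for all genes. Il21 was lower by a further 1.36 on the log2 scale (SE 0.20, edgeR adjusted p = 0.0277). Ly6a, which encodes Sca-1, was at 129 to 188 CPM against 175 to 424 CPM early and reached 856 to 1170 CPM in late plusFoxp3 cells, a difference of 1.70 (SE 0.21, edgeR adjusted p = 0.0131). The number of genes called for late minus early depended strongly on single early libraries, as given in the closing section.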

How the data were processed

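Polyadenylated RNA of sorted cells was made into libraries with SMART-Seq v4, and the authors deposited raw counts of read pairs per gene. The file headers give featureCounts 2.0.3 with GENCODE vM30 gene names on mm39 (GRCm39), counting pairs with both ends mapped and without strand. The study's methods name STAR and the submitters' processing notes Bowtie2, so the aligner is uncertain.

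From these counts, genes whose mean reached 10 counts over the libraries of a fit were tested with edgeR 4.0.16 in R 4.3.3 (TMM factors, quasi-likelihood F-test, two-sided, Benjamini-Hochberg adjusted p under 0.05 called). The early effect used 8 libraries with day as a block, and the day effects and their difference came from the same libraries. Differences from day 0, resting and late cells were interaction terms. SE values belong to log2 fold changes. Totals of 42746339 to 57419138 pairs make counting error small beside library spread for most genes. Named genes were the 12 leading genes per direction among called genes with non-overlapping arms and a mean of at least 100 counts, leaving out predicted genes and T cell receptor segments, with called list members and fixed checks. Members and gene lists were chosen with earlier results of these data known. Alternatives were RLE factors, no filter, DESeq2 1.42.0, a replicate block, all active libraries, no day block and leaving out libraries. The fits were tested on simulated data. Libraries of other experiments of the series were not used here.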

Additional observations from a re-analysis of the deposited data

Results flagged for a closer look

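The early effect differed from the day 0 effect for 28 genes, tested as an interaction in edgeR. Mmp9 differed by 3.98 on the log2 scale (SE 0.58, adjusted p = 0.0397), Depdc1a by 3.54 (SE 0.53, adjusted p = 0.0397) and Foxp3 by 3.29 (SE 0.27, adjusted p = 0.00176). In the other direction, Ankrd35 differed by -6.05 (SE 0.76, adjusted p = 0.0153), Il17f by -4.55 (SE 0.43, adjusted p = 0.00332) and Klrk1 by -4.19 (SE 0.62, adjusted p = 0.0397). Depdc1a was not among the 101 genes called for the early effect itself. Ankrd35 kept its early call in 2 of the 8 fits that left out a library.

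The early effect differed between active and resting cells for 2 genes, Il17f by -3.89 (SE 0.47) and Il2rb by -1.15 (SE 0.14), both with an edgeR adjusted p of 0.0158. The effect at days 14 and 28 differed from that at days 3 and 7 for 28 genes. Ly6a differed by 1.70 (SE 0.21, edgeR adjusted p = 0.0131) and Mllt6 by 1.18 (SE 0.20, edgeR adjusted p = 0.0386). Pdzrn3 differed by -4.01 (SE 0.47, edgeR adjusted p = 0.0131), Glp1r by -2.79 (SE 0.37, edgeR adjusted p = 0.0131) and Nek2 by -2.71 (SE 0.44, edgeR adjusted p = 0.0386).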

How the results depend on the processing

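No log2 value of a gene chosen by the naming rule changed sign under an alternative run, and genes named outside it, such as Nfkb1 and Aqp3, were not recomputed. Numbers of called genes moved, and the cause was not tested. For the early effect (101 genes), no count filter gave 1040, DESeq2 585 and all 22 active libraries 271 (163 higher and 108 lower), while leaving out 1 library gave 21 to 176. For day 3 (25 genes) these were 455, 252, 57 and 0 to 82, and for day 7 (38 genes) 675, 356, 118 and 3 to 1007, the last without D7 minusFoxp3 replicate 2. For the difference between days (0 genes), no filter gave 202, DESeq2 64 and leaving out 1 library 0. For day 0 (0 genes) the values were 292, 28, 1 with all 22 libraries and 0 to 1. For early minus day 0 (28 genes) they were 493, 267, 51 and 4 to 61. Between states (2 genes) they were 451, 106, 11 with all 44 libraries and 0 to 6. For late minus early (28 genes) they were 844, 339, 18 and 3 to 1896, the last without D7 minusFoxp3 replicate 2. For GFP Treg cells (1519 genes), no filter gave 3324 and DESeq2 2601.

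Leaving out both minusFoxp3 libraries with the most Siglech, chosen after seeing the data, gave 42 genes for the early effect, 73 for day 3, 2709 for day 7, 63 for the difference between days, 1 for day 0, 67 for early minus day 0, 8 between states and 1199 for late minus early.

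With a replicate block, 152 genes were called for the early effect, 68 for day 3, 114 for day 7, 44 for early minus day 0 and 0 between states. Deviations of same-numbered libraries correlated at 0.24 at day 3 and 0.043 at day 7, across genes. The labels do not say whether same-numbered libraries belong together, and this was not tested. Itgae lost its call with no day block (edgeR adjusted p = 0.0819). Over the named genes, 663 values kept direction and side of the threshold, 13 newly passed it and 151 no longer passed.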
